A study of Mus musculus with 8 samples.

Results

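Immature granule-rich neutrophils are neutrophils that still make large amounts of transcript for the proteins of their specific granules. They were studied here among leukocytes of liver metastases. A cell was chosen by its counts of unique molecular identifiers (UMIs, counted transcript molecules): at least 200 genes detected, at most 10% mitochondrial UMIs, at least 5 UMIs of Camp, Ltf and Ngp together, at least 3 of S100a9, and none of C1qa, Cd3e or Cd79a. These 7 genes therefore fix the cells, and their values below are a description. Of 48214 leukocytes that passed the first 2 limits, 404 met the rule: 33 and 16 in KO mice 1 and 2, and 44 and 311 in control mice 1 and 2. Where 2 values stand together below, they belong to mice 1 and 2 of the genotype named.

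The 2 KO mice are labelled Vav1CreTet2KO, and the 2 control mice Tet2fl/fl. Tet2 encodes a dioxygenase that oxidises 5-methylcytosine in DNA. Floxed Tet2 is common to both genotypes, and the Vav1 promoter of the KO mice drives Cre recombinase across the blood lineages, not in neutrophils alone. All mice carried liver metastases of Venus-AKTPM/LOH cells, a mouse colorectal cancer line given by injection into the spleen, and were sampled at day 30. Tumours were digested with collagenase A and DNase I, leukocytes were taken from a Histopaque-1083 density gradient, live CD45-positive cells were sorted, and each mouse gave 1 5'-end gene expression library and 1 T cell receptor library, both aimed at 10000 cells. The labels call the mice biological replicates and give neither age nor sex.

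In the bone marrow, neutrophil precursors make granule proteins in waves. Promyelocytes make the proteins of azurophil granules (elastase, myeloperoxidase, proteinase 3), myelocytes and metamyelocytes those of specific granules (lactoferrin, cathelicidin, lipocalin 2), and band cells those of gelatinase granules. The transcription factor C/EBP epsilon drives the specific granule wave. Transcript levels of these genes drop as the cell matures and gains receptors such as CXCR2, so granule transcripts are used as a sign of an immature cell.

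The 3 granule genes of the rule lie on mouse chromosome 9 within 1.2 Mb (GRCm39): Camp, which encodes cathelicidin, at chr9:109676442-109678685 (minus strand), Ngp, which encodes a cathelin-like neutrophilic granule protein, at chr9:110248815-110252086 (plus strand), and Ltf, which encodes lactoferrin, at chr9:110848339-110871835 (plus strand). Their promoters are printed because these 3 genes define the cells and C/EBP epsilon is their known regulator. Each line holds the 250 bases before the RefSeq transcription start, 5' to 3' on the gene's strand, from build GRCm38.p6. Capitals mark a C/EBP-type motif, TTGCNNAA or its reverse complement TTNNGCAA, so both strands are covered.
Camp, chr9:109849457-109849706, minus strand: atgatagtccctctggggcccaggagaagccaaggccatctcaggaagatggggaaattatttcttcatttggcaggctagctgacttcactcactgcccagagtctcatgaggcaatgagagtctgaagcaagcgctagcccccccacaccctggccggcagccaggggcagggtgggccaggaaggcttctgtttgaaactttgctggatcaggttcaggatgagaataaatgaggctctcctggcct
Ngp, chr9:110419558-110419807, plus strand: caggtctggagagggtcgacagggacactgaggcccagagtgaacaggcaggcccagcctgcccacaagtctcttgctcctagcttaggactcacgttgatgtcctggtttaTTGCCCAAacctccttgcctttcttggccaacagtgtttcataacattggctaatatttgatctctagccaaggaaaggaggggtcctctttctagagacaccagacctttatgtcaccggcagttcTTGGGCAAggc
Ltf, chr9:111019042-111019291, plus strand: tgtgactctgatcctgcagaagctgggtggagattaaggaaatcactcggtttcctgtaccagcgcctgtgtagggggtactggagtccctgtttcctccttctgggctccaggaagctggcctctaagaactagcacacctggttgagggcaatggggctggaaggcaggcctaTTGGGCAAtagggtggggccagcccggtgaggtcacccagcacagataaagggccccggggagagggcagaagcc
The Ngp window held 2 matches, starting 138 and 11 bases before the start, the Ltf window 1 match, 75 bases before it, and the Camp window 0. Over all 32851 RefSeq promoter windows of this length, 9.56% held the motif. A match is a run of letters and not a binding site, and a window with no match says nothing of the factor.

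The library totals were 57190926 and 60456627 UMIs in KO mice 1 and 2, and 89945864 and 91789597 in control mice 1 and 2. The chosen cells held 243431 and 102917 of these in KO mice and 282861 and 2016438 in control mice, so control mouse 2 supplies most of the cells and most of the depth. Median UMIs per chosen cell were 5592 and 4544.5 in KO mice and 4682.5 and 5205 in control mice. Cells that met the same rule but had fewer than 5 granule UMIs, called other S100a9-gated cells here (614 and 294 in KO mice, 1510 and 1242 in control mice), were shallower, with medians of 2699 and 2325 UMIs in KO mice and 1890 and 1942 in control mice. No chosen cell carried a T cell receptor contig. Scrublet called 0 and 0 of the chosen cells doublets in KO mice and 2 and 22 in control mice, and they were kept. Any 2 libraries shared 272 to 303 cell barcodes.

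At the edges of the rule, 1 and 3 KO cells and 1 and 5 control cells held exactly 5 granule UMIs, just inside, while 1 and 0 KO cells and 9 and 9 control cells held 4 and fell just outside. The limit on S100a9 mattered little, with 0 and 0 KO cells and 1 and 0 control cells at 3 UMIs, and 0 and 0 KO cells and 1 and 3 control cells at 2. The 3 lineage genes removed 3 and 2 KO cells and 10 and 77 control cells, of which 54 in control mouse 2 had a C1qa UMI. C1qa is a macrophage gene.

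Granule transcripts were a large part of what these cells contained. Camp, Ltf and Ngp together made up 6.44% and 4.77% of their UMIs in KO mice, and 5.89% and 6.73% in control mice. With S100a8 and S100a9, which encode the subunits of calprotectin, 5 genes held 30.6% and 27.2% of all UMIs in KO mice and 26.7% and 30.8% in control mice. The chosen cells held 0.426% and 0.17% of all library UMIs in KO mice and 0.314% and 2.20% in control mice, yet 99.1% and 88.2% of the library's Camp UMIs in KO mice and 77.4% and 83.5% in control mice. For Ngp these shares were 98.7% and 93.1% in KO mice and 74.1% and 86.5% in control mice, and for Ltf 91.6% and 82.5% in KO mice and 69.0% and 83.2% in control mice. As a measure of free RNA, among cells with at least 3 Cd79a UMIs, which as B cells should lack these genes, Camp was detected in 0.0414% and 0.0522% of KO cells and 0.219% and 1.87% of control cells, Ltf in 0.0827% and 0.139% of KO cells and 0.876% and 0.933% of control cells, and Ngp in 0.0827% and 0.087% of KO cells and 0.11% and 3.47% of control cells, at median depths of 3222, 3063, 2527 and 2811.5 UMIs. S100a9 had a UMI in more of them, in 3.83% and 2.87% of KO and 6.79% and 12.8% of control B cells.

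Of the 4 markers given for these cells, 3 are part of the rule and the fourth, Elane, went against the label. Elane, the azurophil protease neutrophil elastase, had 0 UMIs in both KO mice, which allows up to 12.3 and 29.1 CPM (UMIs scaled to a common total per sum of cells), and 1 and 180 UMIs in control mice 1 and 2. Of the 180, 144 lay in 1 cell, and without that cell the level in control mouse 2 was 18.0 CPM, against 89.3 CPM with it. Mpo, which encodes myeloperoxidase, had 1 and 0 UMIs in KO mice and 0 and 20 in control mice. Prtn3, which encodes proteinase 3, was seen in 1 of 33 and 0 of 16 KO cells and in 4 of 44 and 46 of 311 control cells. The other S100a9-gated cells of control mouse 2 included 45 cells with at least 3 Elane UMIs, against 3 of the chosen cells. The chosen cells thus carry genes of the specific granule wave and few transcripts of Elane, Mpo and Prtn3. The name granule-rich is used for them in that sense. The whole azurophil list (18 genes) summed to 19813 and 16722 CPM in KO and 16241 and 17788 in control chosen cells. In the other S100a9-gated cells it summed to 20035 and 19821 in KO mice and 21918 and 19797 in control mice. Lyz2, which also stands in the specific granule list, held most of the sum in the chosen cells. It made up 3043 of 4823 and 1161 of 1721 UMIs in KO mice and 2745 of 4594 and 25821 of 35869 in control mice. Lyz2 was a larger part of all UMIs in the chosen than in the other cells of each mouse, so the sums do not show like levels of the other members.

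Detection of genes that the rule did not use varied from gene to gene. Lcn2, which encodes the iron-siderophore binding lipocalin 2, was detected in 97.0% and 100% of chosen cells in KO mice and 88.6% and 98.4% in control mice, and in 52.9% and 46.3% of other S100a9-gated cells in KO mice and 35.1% and 53.9% in control mice. Ly6g, the surface antigen that marks mouse neutrophils, was detected in 90.9% and 81.2% of chosen cells in KO mice and 81.8% and 82.0% in control mice, against 11.7% and 4.76% of the other cells in KO mice and 4.17% and 4.91% in control mice. The specific granule gene Cd177 was detected in fewer, 66.7% and 56.2% of chosen cells in KO mice and 81.8% and 88.7% in control mice, and Fcnb and Prom1 of the same list had 0 UMIs in KO mouse 2. Cells with a UMI of Mki67 or Top2a, which mark division, were few: 2 and 1 in KO mice (6.06% and 6.25%) and 4 and 32 in control mice (9.09% and 10.3%). Markers of other cell types ranged from 0 to levels shared by myeloid cells. The genes of eosinophils (Epx, Prg2), basophils (Mcpt8, Cpa3), erythroid cells (Alas2) and tumour epithelium (Krt8, Krt18) had 0 UMIs in the chosen cells of all 4 mice, as did Ms4a1 of B cells and Xcr1 of dendritic cells, while other members of some of these lists were present. The dendritic list (9 genes) summed to 45.2 and 97.2 CPM in KO mice and 145 and 57.5 in control mice, and the eosinophil list (8 genes) to 32.9 and 194 in KO mice and 35.4 and 37.7 in control mice. The basophil, erythroid, hepatocyte and tumour epithelial lists each summed to at most 8.43 CPM in any mouse. Summed over each list, macrophage markers (10 genes) lay between 769 and 1134 CPM, monocyte markers (9 genes) between 1664 and 2173, B cell markers (10 genes) between 233 and 267 and T cell markers (10 genes) between 15.9 and 68.0. Much of the B cell sum was Cd37, which neutrophils also express. Without it the sum was 103 and 117 CPM in KO mice and 67.2 and 37.2 in control mice. The NK cell sum (10 genes) was 4.11 and 1594 in KO mice and 194 and 58.0 in control mice, where 119 Gzma UMIs in 1 cell of KO mouse 2 made up most of that mouse's value.

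The chosen cells spanned a wide range of granule content. The share of a cell's UMIs that came from Camp, Ltf and Ngp had a median of 4.23% and 1.90% in KO mice and 4.75% and 6.31% in control mice, with extremes of 0.0483% and 19.5%. Cells with a share of 5% or more made up 48.5% and 31.3% of the chosen cells in KO mice (16 and 5 cells) and 47.7% and 56.9% in control mice (21 and 177 cells). Cells under 1% made up 21.2% and 43.8% in KO mice (7 and 7 cells) and 22.7% and 15.1% in control mice (10 and 47 cells). KO mouse 2 thus had the poorest mix and control mouse 2 the richest, and outside control mouse 2 most of these bins hold fewer than 20 cells.

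Other genes changed in a regular order along that range. The values that follow are CPM in cells under 1%, at 1% to 5% and at 5% or more, and as the bins rest on genes of the rule they are given as a description with no test. Lcn2 read 5901, 5799 and 15732 in KO mouse 1, 5446, 9905 and 13639.7 in KO mouse 2, 2380.1, 10129.7 and 18678 in control mouse 1 and 4247, 9279.6 and 18559.5 in control mouse 2. Itgb2l, an integrin beta subunit of neutrophil precursors, read 0, 140.1 and 165, then 24.3, 227 and 283, in KO mice 1 and 2, and 18.3, 105 and 197, then 30.1, 105 and 238, in control mice 1 and 2. It was higher at each step in all 4 mice, as were Cd177, Ifitm6 and Hmgb2, a chromatin protein of dividing and immature cells. Lcn2, Chil3, Ly6g, Orm1, H2az1 and S100a8 were higher at 5% or more than under 1% in all 4 mice, and Cebpe, which encodes C/EBP epsilon, in 3 of 4.

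Several transcripts of more mature neutrophils ran the other way, but not all. Mmp9, the gelatinase, was higher at 5% or more than under 1% in 3 of 4 mice, and S100a8, as given above, in all 4. Retnlg, which encodes a resistin-like protein of late neutrophils, read 55296, 21957 and 11406 in KO mouse 1, 28982, 20907 and 13130.3 in KO mouse 2, 25156, 17782 and 13546 in control mouse 1 and 18917, 13047 and 8191 in control mouse 2. It was lower at each step in all 4 mice, as was Cxcl2, a neutrophil-attracting chemokine. Il1b, Csf3r (the receptor for G-CSF), Cxcr2 (the receptor for Cxcl2), Ifitm1, Slpi and Cd74 were lower at 5% or more than under 1% in all 4 mice. Cd74 is the invariant chain of MHC class II, a gene of antigen-presenting cells. C1qb, a macrophage gene, read 36.6 CPM under 1% and 0 at 5% or more in control mouse 1. In control mouse 2 it read 181 and 6.07, and in both KO mice 0 in each bin. Csf1r, a receptor of monocytes and macrophages, was lower at 5% or more than under 1% in 3 of 4 mice. The part of such cells in this order was not tested.

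**Figure D1:**
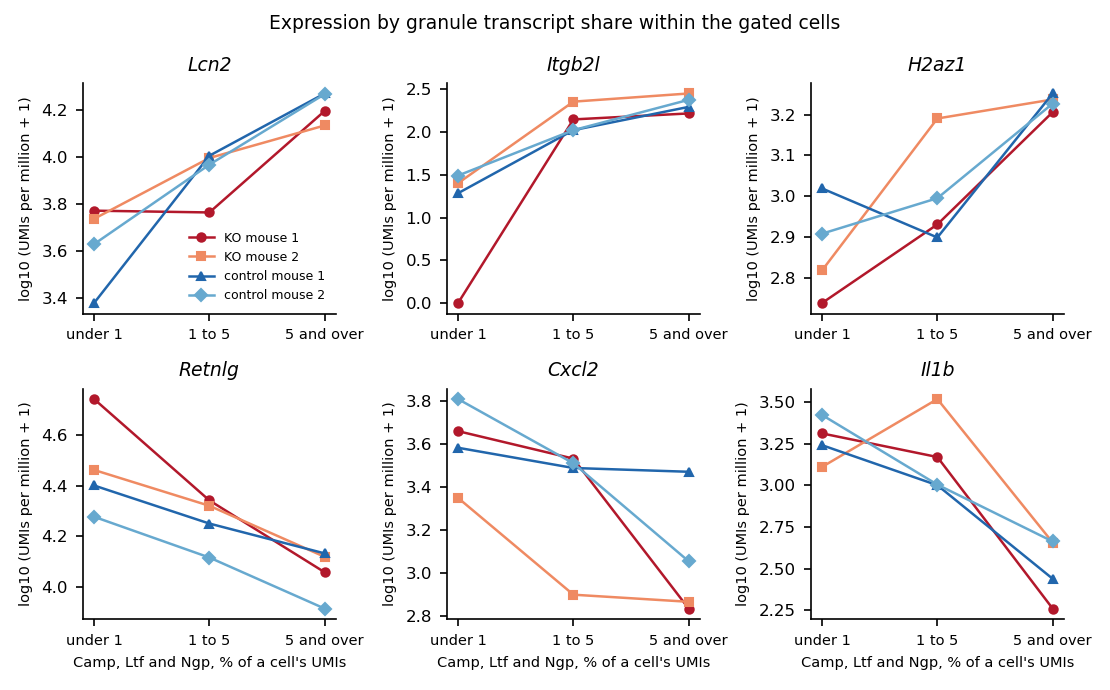
Level of 6 genes in immature granule-rich neutrophils by the share of a cell's UMIs from Camp, Ltf and Ngp (x axis: under 1%, 1% to 5%, 5% and over; y axis: log10 of CPM plus 1, summed over a mouse's cells in the bin; 1 line per mouse). Itgb2l rises and Retnlg and Cxcl2 fall at each step in all 4 mice; Lcn2 and H2az1 end higher and Il1b ends lower in all 4.

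The first comparison asks whether Tet2 loss in blood cells altered how many of these cells a metastasis held. The chosen cells made up 0.307% (95% exact binomial interval 0.212% to 0.431%) of leukocytes in KO mouse 1 and 0.138% (0.0789% to 0.224%) in KO mouse 2, against 0.358% (0.260% to 0.481%) in control mouse 1 and 2.29% (2.04% to 2.55%) in control mouse 2. Both KO values lie below both control values, but KO mouse 1 and control mouse 1 overlap within counting error, and control mouse 2 stands apart from the other 3. The mean was 0.223% ± 0.12 in KO mice and 1.32% ± 1.36 in control mice (SD, n = 2 each), a log2 ratio of -2.57, and the exact two-sided permutation test gave p = 0.333, the smallest that 2 against 2 mice allow. Without control mouse 2 the log2 ratio was -0.69. The intervals cover counting error only, and the density gradient and the sort can set how many granulocytes are kept. Their part was not tested. The make-up of the leukocytes also differed: cells with at least 3 Cd79a UMIs were 4835 of 10741 and 5749 of 11594 in KO mice. In control mice they were 913 of 12281 and 750 of 13598. This difference in B cells enters every share of leukocytes given here. The chosen cells hold no Cd79a UMI, so leaving the B cells out changes the denominators only. By these counts KO mouse 1 would then lie above control mouse 1, so the order of the mice holds for this denominator only.

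Among S100a9-gated cells the picture differed. The chosen cells were 5.10% (3.54% to 7.09%) and 5.16% (2.98% to 8.25%) of these in KO mice, and 2.83% (2.06% to 3.78%) and 20.03% (18.1% to 22.1%) in control mice. The KO values lie between the control values, with means of 5.13% ± 0.0430 in KO mice and 11.4% ± 12.2 in control mice (SD, n = 2 each), and the exact permutation test gave p = 1. The log2 ratio was -1.16, and without control mouse 2 it turned to 0.86. S100a9-gated cells as a whole were 6.02% and 2.67% of leukocytes in KO mice and 12.7% and 11.4% in control mice (exact permutation p = 0.333). When each cell was thinned to 1000 UMIs, the chosen cells made up 0.199% ± 0.12 of leukocytes in KO mice and 1.34% ± 1.41 in control mice.

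**Figure D2:**
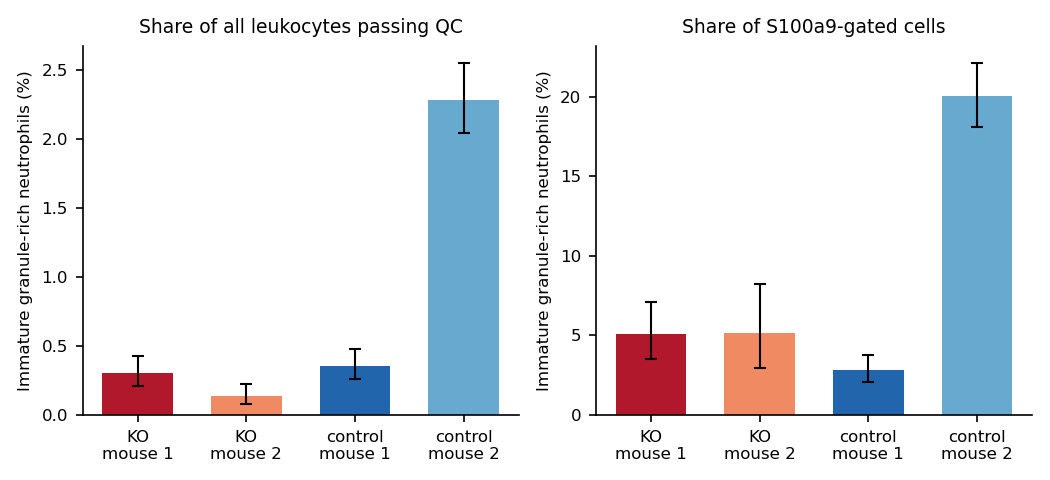
Immature granule-rich neutrophils in each mouse as a percentage of all leukocytes that passed the cell filters (left) and of all S100a9-gated cells (right). Bars are the share in 1 mouse and whiskers its 95% exact binomial interval; control mouse 2, at 2.29% and 20.03%, stands above the other 3 mice in both panels.

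The second comparison sets the chosen cells beside the other S100a9-gated cells of the same mouse. The other cells are a mixed group: they carry S100a9, but the free S100a9 RNA described above and other S100a9-expressing myeloid cells can be among them. UMIs were summed per mouse and group, the 7 genes of the rule were left out of the test, and edgeR's quasi-likelihood test was fitted with the mouse as a block. Because the cells were split on granule transcripts, genes that are transcribed with them had to differ in part, so the calls describe which genes those are. Of 8581 genes tested, 547 (6.37%) were higher and 869 (10.1%) lower in the chosen cells at an adjusted p of 0.05. DESeq2 on the same sums called 459 higher and 318 lower, so higher genes were 59.1% of its calls and 38.6% of edgeR's, and without KO mouse 1 edgeR called 901 genes in all. In this comparison the values are CPM scaled by edgeR's TMM factors, and values of 4 mice are in the order KO mouse 1, KO mouse 2, control mouse 1, control mouse 2.

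Specific granule genes rose as a group: 26 of 29 tested members were higher and 0 lower, with a median log2 difference of 2.61, against -0.23 over all genes tested. Lcn2 had 12483, 9116, 14092 and 17033 in the chosen cells and 732, 518, 602 and 1367 in the other cells, so the groups do not overlap in any mouse (log2 difference 4.10 ± 0.17, SE; adjusted p = 2.73e-121). Among the largest differences were those of Orm1, an acute-phase protein also stored in granules (7.68), Itgb2l (6.16), Adpgk, an ADP-dependent glucokinase (5.20), and Olfm4, the specific granule protein olfactomedin 4 (4.24). Ly6g, which belongs to no granule list, had 962, 857, 809 and 861 in the chosen cells and 47.0, 23.7, 18.5 and 21.3 in the other cells (5.07 ± 0.22; adjusted p = 6.28e-117). Wfdc21, a small secreted protein with a whey acidic domain, differed by 4.55 ± 0.70 (adjusted p = 0.0408) and lost its call in 5 of 13 alternative analyses. Krt83, Septin5 and Fmo5 completed the 10 largest rises with values of 5.12, 4.78 and 4.19.

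The waves on either side were split. Of 18 azurophil granule genes, 3 rose and 6 fell. Serpinb1a, an inhibitor of neutrophil serine proteases, rose (3.99 ± 0.24), whereas Elane (-1.49 ± 0.33) and Mpo (-2.28 ± 0.47) fell. Elane had 0, 0, 3.85 and 109 in the chosen cells and 0, 3.16, 113 and 189.8 in the other cells, so its fall rests on control mice, and its call was lost in 3 of 13 alternatives. The fall of Mpo rests on control mice and few cells: of its UMIs in other cells, 235 of 237 in control mouse 1 and 148 of 284 in control mouse 2 lay in 1 cell each, and in KO mouse 1 it had 1 UMI in each cell group. Of 17 gelatinase granule and secretory vesicle genes, 8 rose and 5 fell. Retnlg had 24022, 20802, 18606 and 13314 in the chosen cells and 4960.0, 2517, 1976 and 1619 in the other cells (2.90 ± 0.16; adjusted p = 4.11e-70), although within the chosen cells it was lowest where granule content was highest. Mmp8, the collagenase of specific granules, differed by 3.11 ± 0.19 and Mmp9, the gelatinase, by 1.07 ± 0.18. Padi4, which citrullinates histones in neutrophil extracellular traps, rose by 2.22 ± 0.23.

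Regulators and cycle genes gave a mixed account. Cebpe had 133, 75.3, 50.1 and 225 in the chosen cells and 9.03, 7.91, 12.5 and 17.5 in the other cells (3.29 ± 0.28; adjusted p = 3.68e-29). Among 23 transcription factors of granulocyte development, 6 rose, among them Cebpe and Klf5 (3.53 ± 0.40), and 8 fell, among them the stress factor Atf3 (-1.27 ± 0.20). Of 28 cell cycle genes 2 rose, H2az1 (1.05 ± 0.17) and Hmgb2 (0.82 ± 0.17), both chromatin genes. Mki67 did not pass the test (0.55 ± 0.35; adjusted p = 0.314). Of 12 respiratory burst genes 4 rose, among them Cybb, the catalytic subunit of the phagocyte NADPH oxidase (1.60 ± 0.18), and 1 fell.

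Inflammatory transcripts were lower. Of 24 chemokine, cytokine and response genes 20 fell and 1 rose, with a median log2 difference of -1.36. Cxcl2 had 2539, 1309, 3448 and 2926 in the chosen cells and 5705, 5026, 16844 and 8835 in the other cells, lower in all 4 mice (-1.75 ± 0.16; adjusted p = 1.15e-25). Nlrp3, the inflammasome sensor, had 28.6, 18.8, 80.9 and 89.3 in the chosen cells and 319, 249, 539.7 and 339 in the other cells (-2.60 ± 0.24; adjusted p = 2.3e-25). Il1a (-2.92), the chemokine Cxcl3 (-2.72), the growth factor Csf1 (-2.37) and Il1rn, the interleukin-1 receptor antagonist (-2.02), fell as well. The largest falls also took in the lectin Clec4n (-2.41), H2-Q10 (-2.30), the early gene Egr1 (-2.27), Ccrl2 (-2.24) and Gbp2 (-2.23). Free RNA could make up 20% or more of the Gbp2 level in the chosen cells of control mice. That limit says nothing of the other cells, where these genes were higher. Il1b fell (-1.32 ± 0.26), with its call lost in 4 of 13 alternatives. Type I interferon response genes fell in 14 of 28 cases and rose in 1, with Isg15 at 238, 122, 262 and 134 in the chosen cells and 716, 756, 1239.7 and 388 in the other cells (-1.92 ± 0.20).

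Receptors of mature neutrophils were lower too, with 16 of 23 falling and 1 rising (median -0.76). Csf3r had 400.2, 94.2, 135 and 118 in the chosen cells and 1094, 871, 685 and 308 in the other cells (-1.93 ± 0.20; adjusted p = 1.66e-20). Il1r2, the decoy receptor for interleukin-1, fell (-1.55 ± 0.17), and Cxcr2 passed narrowly (-0.58 ± 0.22; adjusted p = 0.0484), in 4 of 13 alternatives, with adjusted p up to 0.346. Among genes linked to suppressive neutrophils 12 of 20 fell and 4 rose. Those that fell included Cd274, which encodes PD-L1 (-1.89 ± 0.23), Wfdc17 (-2.20 ± 0.19) and Ifitm1 (-2.32 ± 0.19), and S100a8 rose (3.07 ± 0.15). Translation genes fell in 12 of 22 cases and rose in 0, and antigen presentation genes fell in 6 of 14 and rose in 0. Several of these calls were often lost: Rps2 passed in 6, Rps19 in 7 and Rpl10 in 8 of 12 alternatives, Psmb8 in 3 and Tap1 in 9 of 12, and Tapbp in 8 of 13, whereas Rplp1 and H2-K1 passed in all 12 and 13 run for them. Of 21 hypoxia and glycolysis genes 6 rose, among them the glycolytic enzymes Gpi1 (1.16), Hk3 (1.44) and Ldha (0.84), and 5 fell, among them Hilpda (-0.77). The dissociation stress genes were higher in 2 of 21 cases and lower in 10. Before TMM scaling they summed to 10114 and 10649 CPM in KO and 10168 and 10584 in control chosen cells. In the other cells these sums were 17050.5 and 17025 in KO and 19158 and 18248 in control mice. TMM scaling narrows this gap, as the factors were lower in the chosen cells of every mouse. Monocyte markers were higher in 1 of 9 and lower in 6. The part of either list in these differences was not tested.

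**Figure D3:**
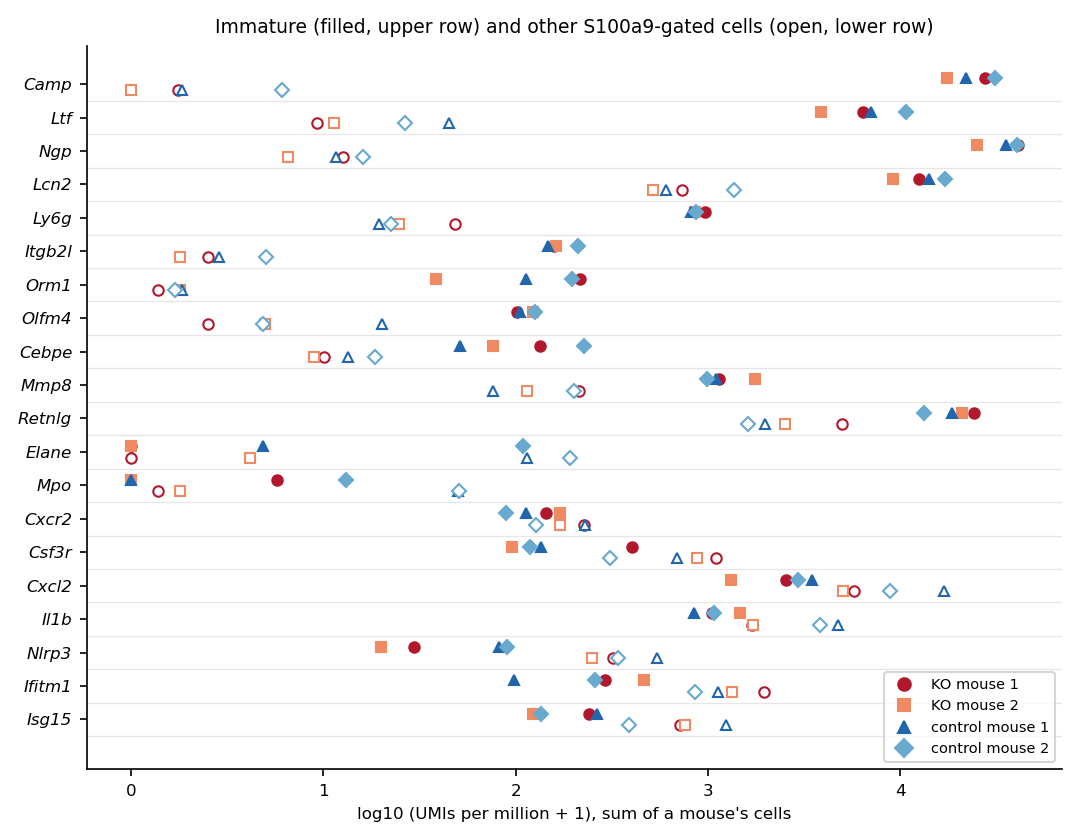
Level of 20 genes in immature granule-rich neutrophils (filled, upper row) and other S100a9-gated cells (open, lower row) of each mouse, as log10 of CPM plus 1 on the x axis. Camp, Ltf and Ngp chose the cells and carry no test; Lcn2, Ly6g and Cebpe lie to the right in the chosen cells of all 4 mice and Cxcl2, Csf3r and Nlrp3 to the left.

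The third comparison asks how the chosen cells of KO mice differed from those of control mice. Hilpda, Tpi1, Cd177, Ier3, Il1a and Fn1, given below, were also called lower in KO mice among the other S100a9-gated cells. Their falls are therefore not particular to the chosen cells. The 5 genes that rose, Ccl4, Gngt2, Sh2b2, Vps37b and Pou2f2, also read higher in both KO mice among the other cells. Vps37b had 1030 and 690 CPM before TMM scaling in KO and 446 and 180 in control other cells. Id1, Slpi, Fcgr2b and H1f0 read lower in both KO mice there, while Ifitm6 overlapped. These are levels, with no test given here. Tet2 itself had 73.3 and 43.0 CPM in KO mice and 27.4 and 52.4 in control mice (17, 5, 8 and 95 UMIs; log2 change 0.47 ± 0.46; adjusted p = 0.716). The groups overlap, and since the sources used here do not say which exon is floxed, reads from the 5' end neither check nor question the labels. Levels in this comparison are CPM scaled by TMM within the chosen cells, and the test is edgeR's on 1 sum per mouse. Levels by granule share are CPM before TMM scaling. Of 2787 genes tested, 5 (0.179%) were higher and 18 (0.646%) lower in KO mice, 378 having an unadjusted p under 0.05, and the median log2 change over all tested genes was -0.11. The sums rest on 33 and 16 KO cells and 44 and 311 control cells, so only genes with many UMIs could be tested. Hilpda alone was called in all 15 alternative analyses, in which the number of calls lay between 1 (a granule limit of 10 UMIs) and 129 (without KO mouse 2).

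The clearest change was in Hilpda, which encodes a hypoxia-induced protein of lipid droplets that inhibits the triglyceride lipase ATGL. It had 12.9 and 17.2 CPM in KO mice and 270.4 and 308 in control mice, and was detected in 6.06% and 12.5% of chosen cells in KO mice and 36.4% and 43.4% in control mice. The groups do not overlap, and the levels within each genotype are close. Hilpda fell, with a log2 change of -4.31 ± 0.46 (SE; adjusted p = 0.000274) and stayed past the threshold in 15 of 15 alternative analyses, between -4.47 and -3.51. By granule share, KO mouse 1 read 0, 10.8 and 16.5, KO mouse 2 24.3, 0 and 28.3, control mouse 1 787, 209 and 127 and control mouse 2 443, 289 and 237, lower in both KO mice than in both control mice in each bin. The KO values rest on 3 and 2 UMIs.

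Tpi1, the glycolytic enzyme triosephosphate isomerase, also fell. It had 90.5 and 51.6 in KO mice and 291 and 239 in control mice (-1.81 ± 0.37; adjusted p = 0.0289), and passed in 8 of 15 alternatives. Both stand in the hypoxia and glycolysis list, which had 2 of 18 tested members lower and 0 higher, with a median of -0.60. Ldha, lactate dehydrogenase A, had 673 and 413 in KO mice and 1280.2 and 1101 in control mice and missed the threshold (-1.11 ± 0.26; adjusted p = 0.0599).

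Within the specific granule list 2 of 27 tested genes fell and 0 rose (median -0.24). Cd177, a surface glycoprotein also stored in specific granules, had 384 and 370.0 in KO mice and 945 and 1094 in control mice (-1.44 ± 0.23; adjusted p = 0.00973; 13 of 15 alternatives). Ifitm6, of the interferon-induced transmembrane family, had 1526 and 1359.5 in KO mice and 2711 and 3956 in control mice (-1.21 ± 0.25; adjusted p = 0.0289; 9 of 15). Neither pair of groups overlaps. Both genes climb with granule content, and KO mouse 2 had the fewest granule-rich cells. Among cells with a granule share of 5% or more, Cd177 read 569 and 651 in KO mice and 1378 and 1271 in control mice, and Ifitm6 1698 and 1981 in KO mice and 4183 and 4365 in control mice. The other granule genes did not pass: Lcn2 had 11296 and 8329 in KO mice and 12522 and 15564 in control mice (-0.52 ± 0.26; adjusted p = 0.418). Of the rule's own genes, Camp had 25031 and 16005 in KO mice and 19443 and 28232 in control mice and Ltf 5790.0 and 3519 in KO mice and 6261 and 9707 in control mice, given with no test.

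Signalling and response genes moved in both directions. Ier3, an NF-kappa-B-responsive early gene, had 233 and 94.7 in KO mice and 685 and 953 in control mice (-2.24 ± 0.35; adjusted p = 0.0114; 14 of 15 alternatives). It stands in the inflammatory list and in the dissociation stress list, in which it was the only gene of 21 called. Il1a, of the inflammatory list, fell, with 1 and 0 UMIs in KO mice and 12 and 110 in control mice (adjusted p = 0.0478; 6 of 9 alternatives), while Ccl4 rose, so that 2 of 21 inflammatory genes were lower and 1 higher (median -0.70). Id1, an inhibitor of helix-loop-helix transcription factors, had 73.3 and 43.0 in KO mice and 253 and 355 in control mice (-2.32 ± 0.38; adjusted p = 0.00973; 14 of 15 alternatives). Slpi, an inhibitor of neutrophil elastase, had 772 and 886 in KO mice and 1924 and 1946 in control mice (-1.23 ± 0.22; adjusted p = 0.0201; 10 of 15). Id1 and Slpi, with Fbxl5 (-1.60), lay outside the rule for named genes and were chosen after their values were seen.

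Ccl4, an inflammatory chemokine, had 767 and 1437 in KO mice and 322 and 339 in control mice (1.72 ± 0.28; adjusted p = 0.0114), but few cells carried it. It was seen in 6 of 33 and 4 of 16 KO cells and in 12 of 44 and 46 of 311 control cells, and 104 of 178 UMIs in KO mouse 1 and 132 of 167 in KO mouse 2 lay in 1 cell each, which held 0 UMIs of the NK cell markers. Without the highest cell of each mouse it read 324 and 386 CPM before TMM scaling in KO mice and 175 and 224 in control mice. Gngt2, a G protein gamma subunit (1.97 ± 0.36), Sh2b2, a signalling adaptor (1.73 ± 0.35), Vps37b, of the ESCRT-I complex (1.63 ± 0.34), and Pou2f2, the transcription factor Oct-2 (2.84 ± 0.55), rose as well. They passed in 9 of 13, 7 of 14, 7 of 15 and 6 of 13 alternatives, and the log2 change of Vps37b was as low as 0.34. Sh2b2 had 138 and 146 in KO mice and 34.2 and 45.7 in control mice. Sh2b2, Vps37b and Pou2f2 were lower at a granule share of 5% or more than under 1% in all 4 mice, and KO mouse 2 had the largest share of cells under 1%. In cells at 5% or more, Gngt2 read 41.2 and 28.3 in KO mice and 42.2 and 34.7 in control mice, Vps37b 189.5 and 56.6 in KO mice and 112 and 96.3 in control mice, and Pou2f2 41.2 and 0 in KO mice and 7.03 and 2.6 in control mice, so in these the groups overlapped. Sh2b2 read 49.4 and 56.6 in KO mice and 14.1 and 30.4 in control mice there, without overlap. These cells held 121343 and 35338 UMIs of all genes in KO mice and 142257 and 1153051 in control mice. Outside control mouse 2 the Sh2b2 levels thus rest on a few UMIs each, and counting error alone could set their order. Of the UMIs of KO mouse 2, 34 of 69 for Gngt2 and 5 of 6 for Pou2f2 lay in 1 cell.

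The remaining genes that fell had few KO UMIs. Krt81, a hair keratin, had 1 and 0 UMIs in KO mice and 44 and 152 in control mice; Lipg, a lipase, had 1 and 0 in KO mice and 15 and 112 in control mice; and Fdps, of the mevalonate pathway, had 6 and 1 in KO mice and 33 and 178 in control mice. H1f0, a linker histone, and Garem1, a signalling adaptor, had 0 UMIs in both KO mice and were at least 5.82-fold and 5.87-fold lower there, taking 3 counts over both KO mice as the floor. These calls were lost in part of the alternatives: Krt81 passed in 11 of 14, Fdps in 9 of 15, Lipg in 7 of 15, H1f0 in 6 of 13 and Garem1 in 6 of 14. Garem1 was detected in 20.5% and 19.9% of chosen cells in control mice. Fcgr2b, the inhibitory IgG receptor (-2.74), the cytokine Mif (-2.33), Fn1, which encodes fibronectin (-1.90), and Eps8 (-4.19) fell too, but free RNA could make up 20% or more of their higher level, and they passed in 10 of 12, 9 of 13, 7 of 12 and 5 of 12 alternatives. Levels of B cell genes, with Cd37 left out, in the chosen cells were 3.68% and 4.25% of the library's in KO mice and 8.55% and 8.23% in control mice.

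No gene passed in 12 further lists: 11 azurophil, 16 gelatinase, 23 mature receptor, 18 transcription factor, 9 cell cycle, 9 respiratory burst, 12 interferon, 15 suppressive, 21 translation, 16 recruitment, 2 DNA methylation and 12 antigen presentation genes were tested. Cell cycle genes had a median of -0.34, interferon genes 0.35, translation genes -0.44 and antigen presentation genes -0.84. Retnlg had 21737 and 19008 in KO mice and 16533 and 12166 in control mice (0.51 ± 0.27; adjusted p = 0.427), and Cebpe 121 and 68.8 in KO mice and 44.5 and 206 in control mice (-0.48 ± 0.75; adjusted p = 0.85). Cxcl2 (-0.70 ± 0.28), Il1b (0.38 ± 0.25), Csf3r (1.08 ± 0.53), Cxcr2 (0.68 ± 0.33), Mmp8 (0.47 ± 0.24) and Mmp9 (-0.23 ± 0.23) also missed the threshold. A missed threshold with 2 mice a group does not show that levels were alike.

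**Figure D4:**
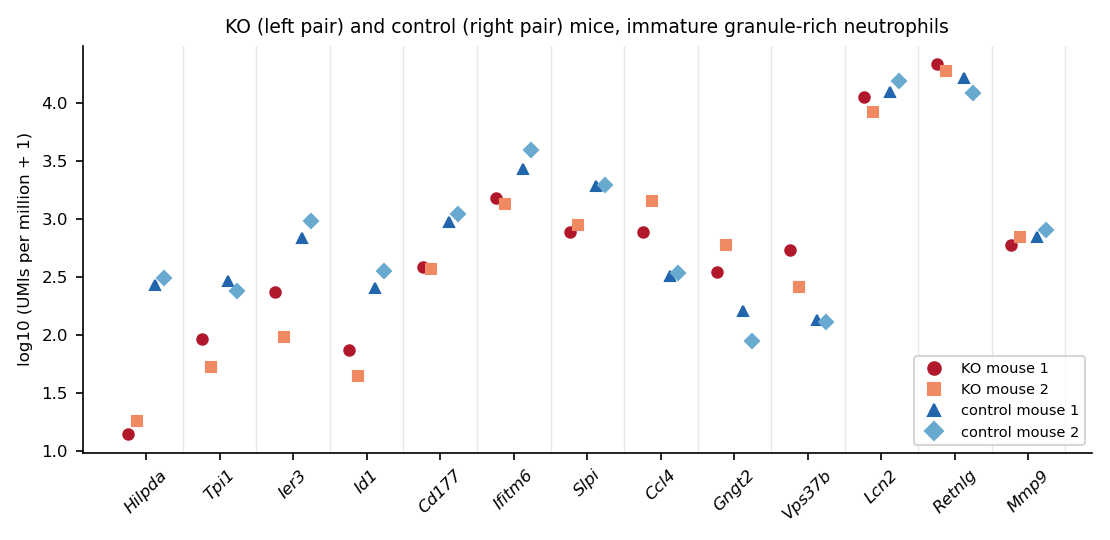
Level of 13 genes in immature granule-rich neutrophils of each mouse (KO mice left, control mice right; y axis: log10 of CPM plus 1). Both KO mice lie below both control mice for Hilpda, Tpi1, Ier3, Id1, Cd177, Ifitm6 and Slpi and above them for Ccl4, Gngt2 and Vps37b; Lcn2, Retnlg and Mmp9 did not pass the test.

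The fourth comparison asks whether the genotype difference in the chosen cells departed from that in other S100a9-gated cells of the same mice. In the other cells alone, 198 of 9836 genes (2.01%) were higher and 184 (1.87%) lower in KO mice, a total that, with 1 mouse left out, ranged from 209 (without KO mouse 1) to 2734 (without control mouse 1), and that was 135 in cells without other lineage UMIs. The genotype by stage term passed for 30 of 8581 genes, 6 (0.0699%) with a more positive and 24 (0.28%) with a more negative KO difference in the chosen cells. Levels here share 1 scaling over the 8 sums. Hilpda had 14.3 and 18.8 in KO and 304 and 337 in control chosen cells, and 135 and 123 in KO and 344 and 356 in control other cells, so it was lower in KO mice in both and by more in the chosen cells (-2.91 ± 0.61; adjusted p = 0.00153). In the other cells it fell as well (-1.50 ± 0.30; adjusted p = 0.0286), with 7 of 21 hypoxia and glycolysis genes lower and 0 higher there. Tpi1, Cd177, Ier3, Il1a and Fn1 were called lower in KO mice there too. Before TMM scaling, Cd177 had 11.7 and 36.5 in KO and 187 and 114 in control other cells. On the same scale Id1 had 97.8 and 80.4 in KO and 296 and 269 in control other cells. Ifitm6 had 1687 and 1488 in KO and 3051 and 4329.9 in control chosen cells, and 304 and 278 in KO and 189 and 278 in control other cells (-1.54 ± 0.36; adjusted p = 0.00863).

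Il1b and Wfdc21 went the other way. Il1b had 1043 and 1469 in KO and 847 and 1074 in control chosen cells, and 1695 and 1700.2 in KO and 4704 and 3798 in control other cells (1.68 ± 0.36; adjusted p = 0.00211). The groups do not overlap among the other cells and do among the chosen cells. Wfdc21 had 2882 and 2072 in KO and 2600.3 and 3240.0 in control chosen cells, and 51.9 and 43.5 in KO and 173 and 349.9 in control other cells (2.14 ± 0.37; adjusted p = 1.98e-05). For Cd177 (1.36 ± 0.41; adjusted p = 0.12), Ier3 (-0.01 ± 0.39) and Ccl4 (0.02 ± 0.37) the term did not pass. DESeq2 called 3 genes for this term, and edgeR called 13 without KO mouse 1 and 6 without KO mouse 2.

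**Figure D5:**
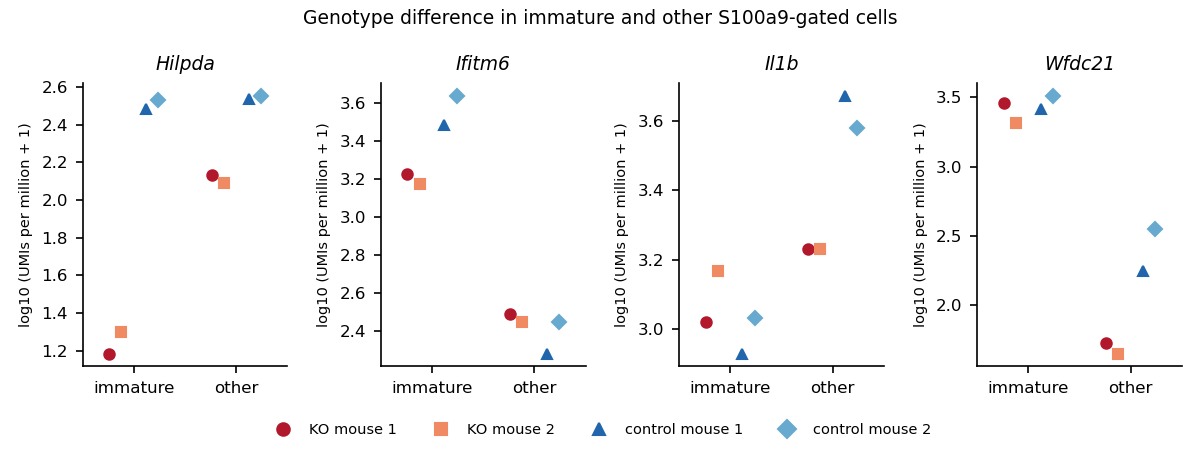
Level of 4 genes in immature granule-rich neutrophils (left group of each panel) and other S100a9-gated cells (right group), with KO mice left of control mice; y axis: log10 of CPM plus 1. Hilpda is lower in KO mice in both groups, Ifitm6 in the immature cells, and Il1b and Wfdc21 in the other cells.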

How the data were processed

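Single-cell gene expression and T cell receptor libraries were made from 4 mice (8 samples in all). The authors deposited raw UMI counts per gene and barcode, and contigs with UMI counts. Per the submitters' processing notes, Cell Ranger 8.0.1, R 4.4.1 and Seurat 5.0.1 were used, with GRCm39; settings for barcode calling are not given in the sources used here.

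Cells were filtered and chosen as the report states, with Python 3.11.15, scanpy 1.11.5 and scipy 1.17.1. Doublets were called with Scrublet at 0.8% per 1000 cells and kept. UMIs were summed per mouse and cell group and tested with edgeR 4.0.16 in R 4.3.3 (filterByExpr, TMM, robust quasi-likelihood F test, Benjamini-Hochberg adjustment, threshold 0.05), leaving out the 7 genes of the rule. DESeq2 1.42.0 was an alternative. The SE of a log2 change is its size over the square root of F. Genes were called prone to free RNA where RNA of the whole library could reach 20% of the level in the higher genotype. The library's RNA was scaled to the level of B cell genes in the sum, with Cd37 left out. This was done within the chosen cells and within the other cells. The tests were checked on simulated counts with the same spread for every gene and large changes in well-counted genes only. That check does not cover genes with few UMIs, outlying cells or an outlying mouse. Library totals ranged from 57190926 to 91789597 UMIs; intervals and limits cover counting error only.

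Named genes were called members of 27 lists (at most 4 a list), the 10 largest changes each way among called genes whose mice did not overlap (genotype) or moved alike (stage), averaging 20 CPM (genotype) or 50 CPM (stage) or more, and a constant set of 17 neutrophil genes. The members of the cell group and the gene lists were chosen with earlier results of these data known. Other settings tried were DESeq2 size factors, no filter on low counts, each mouse left out, stricter cell filters, removal of doublets, other gates, cells without other lineage UMIs, genes prone to free RNA left out, and the replicate block. The T cell receptor libraries were used only to count contigs.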

Additional observations from a re-analysis of the deposited data

Results flagged for a closer look

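Of the 30 genes called, 15 are named by the rule for named genes; for each the KO minus control difference in the immature granule-rich neutrophils departed from that in the other S100a9-gated cells (edgeR, genotype by stage term with the mouse as a block; log2 values are the difference between the differences, ± SE where given). Hilpda (-2.91 ± 0.61), Ifitm6 (-1.54), Il1b (1.68) and Wfdc21 (2.14) are described above. They were called in 8, 9, 9 and 10 of 13 alternative analyses.

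Ero1a, an oxidoreductase of the endoplasmic reticulum, had 124 and 94.2 CPM in KO and 127 and 158 in control immature cells, and 27.8 and 29.3 in KO and 180.0 and 142 in control other cells (2.09 ± 0.46; adjusted p = 0.00371). Abca13, a lipid transporter, had 124 and 104 in KO and 84.7 and 152 in control immature cells, and 1.51 and 2.37 in KO and 19.5 and 29.5 in control other cells (3.70 ± 0.65; adjusted p = 3.05e-05). Among other cells the groups do not overlap in either gene, and among immature cells they overlap in Abca13 and not in Ero1a. Pglyrp1, a granule protein that binds peptidoglycan, had 4417 and 3541 in KO and 4068 and 4938 in control immature cells, and 1431 and 991 in KO and 602 and 381 in control other cells (-1.50 ± 0.35; adjusted p = 0.00925). Cd63, a tetraspanin of azurophil granules, differed by -1.59 ± 0.40 (adjusted p = 0.0206; 5 of 13 alternatives).

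The early granule genes Prtn3 (3.40; adjusted p = 0.000276) and Ms4a3 (7.67; adjusted p = 0.00314) had few KO UMIs (Prtn3 12 and 0 in immature and 18 and 20 in other cells; Ms4a3 6 and 2 in immature and 0 and 0 in other cells), and both reversed under an alternative. The MHC class II genes H2-Eb1 (-3.48), H2-Aa (-2.09) and H2-Ab1 (-1.95) passed in 10, 7 and 6 of 12 alternatives. In control mouse 1, 115 of 222 H2-Eb1 UMIs lay in 1 immature cell of 17272 UMIs. The same cell held 109 of 249 H2-Aa and 146 of 234 H2-Ab1 UMIs. Cd209a (-10.41) and Siglech (-12.49), dendritic cell genes, had 0 UMIs in the immature cells of both KO mice. Those of control mice had 24 and 23 Cd209a UMIs and 0 and 3 Siglech UMIs. All 24 Cd209a UMIs of control mouse 1 lay in that same cell, and 17 of 23 in control mouse 2 lay in 1 cell. The fitted values of both genes also depend on the prior count.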

How the results depend on the processing

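With 2 mice a genotype and 1 control mouse holding 311 of the 404 cells, depth limits what could be tested. In immature cells 23 genotype calls became 6 with DESeq2 size factors, 13 with DESeq2, 91 without a low count filter, 29 to 129 with a mouse left out, 7 without called doublets, 1 with a granule gate of 10 UMIs, 55 without genes prone to free RNA, and, in analyses added after seeing the data, 8 with S100a9 of at least 10 UMIs and 12 in cells with a granule share of at least 5%. All of the 23 that could be tested kept their sign in each. The median log2 change of all genes was 0.01 under DESeq2, against -0.11. The 1416 stage calls became 777 under DESeq2 (769 of the same genes) and 901 to 1299 with a mouse left out. The 382 calls in other cells became 1238 without the filter, 209 to 2734 with a mouse left out, 144 without doublets, 135 without other lineage UMIs and 248 without prone genes. The 30 genotype by stage calls became 3 under DESeq2, 6 to 45 with a mouse left out, 15 without doublets and 18 without other lineage UMIs. The log2 ratio of the share of leukocytes lay between -3.36 and -0.69 with a mouse left out, and that of S100a9-gated cells between -1.96 and 0.86. With 2 pairs it could not be settled whether replicate numbers pair the mice (correlation of deviations -0.087 in immature and 0.286 in other cells). With the replicate block 79 and 1470 genotype genes were called in immature and other cells, against 23 and 382 without it. The share ratios with the block were -2.14 and -0.55. Signs reversed for Cebpe (-1.07 to 1.15 with a mouse left out, the highest without control mouse 2), Csf3r (-0.43 to 1.68) and Tet2 (-0.11 to 1.15, both lowest without KO mouse 1), for Cxcr2 (-0.94), Il1b (-0.74) and Retnlg (-0.030) at a granule share of at least 5%, for Mki67 by stage (-0.086 to 0.98, the lowest without control mouse 1), and, in the genotype by stage term, for Ms4a3 (-0.66 without other lineage UMIs) and Prtn3 (-6.66 to 4.76 with a mouse left out, the lowest without KO mouse 1, and -2.14 without other lineage UMIs). The cause was not tested, beyond the smaller number of cells or genes that some settings leave.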

Other observations

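Elane transcripts lay mostly outside the immature granule-rich neutrophils. The other S100a9-gated cells held 0 and 4 Elane UMIs in KO mice and 544 and 1086 in control mice, 537 of the 544 in 1 cell. Krt83, a hair keratin, had 229, 37.7, 235 and 210.5 CPM in immature cells and 7.53, 5.54, 8.32 and 2.45 in other cells of KO mice 1 and 2 and control mice 1 and 2 (5.12 ± 0.28; edgeR adjusted p = 1.45e-68).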
